A study of Mus musculus with 12 samples.

Results

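The amino acid transporters examined here were the mouse genes of the solute carrier families Slc1, Slc3, Slc6, Slc7, Slc36, Slc38 and Slc43. They were taken from the probe annotation by their symbols: a gene was a member when a probe set carried only that symbol and the symbol was one of these family names followed by the letter a and a number. The rule found 60 genes on 62 probe sets, out of 28213 probe sets on the array and 19937 genes that have a probe set of their own. Slc38a1 and Slc38a9 had a second probe set, and for each of them the probe set with the higher mean over the 12 arrays was used. There were 18 members of Slc6, 15 of Slc7, 11 of Slc38, 7 of Slc1, 4 of Slc36, 3 of Slc43 and 2 of Slc3.

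The study asked how long-acting insulins change gene expression in the liver soon after a single injection. C57BL/6 mice, given as 6 week-old in the labels and as females bought at 7 weeks in the study's methods, received one subcutaneous injection and the liver was taken 6 h later. The injections were saline, Albulin at 55 nmol/kg, Insulin-Apo at 55 nmol/kg or insulin glargine at 55 nmol/kg, with 3 arrays each. Albulin is a single-chain insulin fused to albumin, Insulin-Apo has apolipoprotein A-I in the place of albumin, and insulin glargine is a marketed long-acting insulin analogue without a fusion partner. All groups were of the same wild-type strain, and none was made diabetic. The labels do not say that each array is a separate mouse, and the p-values below measure the spread between arrays, whose small number limits the precision.

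Amino acids enter and leave hepatocytes through carriers that each take a class of substrates. Proteins of the Slc3 family are heavy chains that do not transport by themselves but bring light chains of the Slc7 family to the cell surface. Members of Slc38 carry glutamine, alanine and other small neutral amino acids (systems A and N), Slc1 holds the glutamate carriers and the neutral exchangers of system ASC, Slc6 holds carriers of osmolytes, creatine, taurine, glycine and neurotransmitters, Slc36 holds proton-coupled carriers found on lysosomes, and Slc43 holds carriers of large neutral amino acids. Insulin is known to act on hepatic amino acid uptake and on mTORC1, a kinase complex that senses amino acids supplied by such carriers.

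RNA of whole liver was measured on Mouse Gene 1.0 ST microarrays from Affymetrix, and the values are log2 expression after RMA, the authors' summary of each probe set. A log2 difference of 1 is a change by a factor of 2. The tissue label was checked with 10 hepatocyte markers such as albumin and transthyretin, of which 9 were measured, and the log2 of their summed level lay between 17.60 and 17.66 on every array. Array medians lay between 7.70 and 7.77. Mean correlations with the arrays of the same group were 0.990 to 0.993 among the glargine arrays and 0.995 to 0.997 within the other groups. Replicate 3 of insulin glargine stood apart, with a mean correlation of 0.985 to the arrays of the other groups, where every other array had 0.991 to 0.994. Where that array moved a value of a transporter gene described below by over 1.5 times or changed its call, the value without it is given too. Genes outside the transporter families were not examined without that array. The study's microarray methods name no insulin glargine arrays, and the sources do not say whether these were run with the others. A separate run could not be told apart from the insulin glargine treatment. In whole liver, fewer cells of a type and less RNA per cell cannot be told apart.

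Of the 60 members, 59 had a mean over log2 5 in these livers, and Slc7a12 was the exception, with a mean of 4.34 and no array over 5. That level separates little on this platform, because the medians of the arrays lie above it. Slc6a3, the dopamine transporter of neurons, had group means of 7.63 in saline, 7.64 after Albulin, 7.60 after Insulin-Apo and 7.66 after insulin glargine. A mean over 5 is therefore given as a description and not as a sign that a gene is expressed in liver. The same 59 members passed the filter on low values and were tested.

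In each of the 6 pairwise comparisons a gene was called when limma's B statistic, the log odds that it differs, was over 0, and "rose" and "fell" are used for called genes only. Adjusted p-values are from limma with Benjamini-Hochberg adjustment over all probe sets tested in that comparison. The 3 comparisons with saline share the saline arrays. After Albulin, 1 of 59 members (1.69%) rose, where 1.37% of all probe sets rose. No member fell after Albulin by limma, where 1.04% of all probe sets fell, and 6 members (10.2%) were lower at an unadjusted p under 0.05, beside 9.08% of all probe sets. After Insulin-Apo, 2 members (3.39%) fell, where 0.804% of all probe sets fell. No member rose after Insulin-Apo by limma, where 1.34% of all probe sets rose, and 5 (8.47%) were higher at an unadjusted p under 0.05, beside 9.13%. After insulin glargine, 2 members (3.39%) rose beside 2.24% of all probe sets, and 1 (1.69%) fell beside 2.6%. Single arrays moved these counts: 6 members were called after insulin glargine without its replicate 3, 1 without its replicate 2 or without saline replicate 2, none after Insulin-Apo without saline replicate 1 or 3, 1 after Insulin-Apo without any other single array but Albulin replicate 3, and 2 after Albulin without its replicate 1 or without Insulin-Apo replicate 2.

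Between the insulins, no member was called for Albulin against Insulin-Apo by limma, where 0.639% of all probe sets were called, and 5 members (8.47%) passed an unadjusted p under 0.05, beside 13.5%. Against Albulin, 2 members (3.39%) were higher after insulin glargine, where 2.01% of all probe sets were higher. None was called lower there by limma, where 2.35% of all probe sets were, and 5 (8.47%) were lower at an unadjusted p under 0.05 beside 11%. Against Insulin-Apo, 3 members (5.08%) were higher after insulin glargine beside 1.96% of all probe sets, and 1 (1.69%) was lower beside 2.88%. For insulin glargine against Albulin no member was called without Albulin replicate 1 or 2, and 1 was called without Albulin replicate 3, Insulin-Apo replicate 1 or 3, or saline replicate 1 or 2. One gene is 1.69% of the tested members, and each count of members called by B over 0 lies within 2 genes of its background share.

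The other threshold, an adjusted p under 0.05, took in more probe sets than B over 0 in every comparison but Albulin against Insulin-Apo, where it took in fewer. It was passed by 2 members after Albulin (4.69% of all probe sets), 3 after Insulin-Apo (3.73%), 0 between Albulin and Insulin-Apo (0.139%), 11 after insulin glargine (10.9%), 9 for insulin glargine against Albulin (8.94%) and 9 for insulin glargine against Insulin-Apo (10.8%). As shares of the 59 tested members these counts are 3.39%, 5.08%, 0%, 18.6%, 15.3% and 15.3%. Of the 11 after insulin glargine, 6 were higher and 5 lower. The arrays of the compared groups did not overlap for 13 members (22%) after Albulin, 17 (28.8%) after Insulin-Apo and 15 (25.4%) after insulin glargine, where 23.3%, 23.1% and 24.8% of all probe sets did not overlap. Between the insulins they did not overlap for 8 members (13.6%) for Albulin against Insulin-Apo, 13 (22%) for insulin glargine against Albulin and 17 (28.8%) for insulin glargine against Insulin-Apo, beside 18.6%, 23% and 25.4%. The median log2 difference over the members lay between -0.05 and 0.05 in the 6 comparisons, and the median over all probe sets between -0.02 and 0.02.

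Across the 4 treatments together, 13 of 59 members (22%) differed by limma's moderated F test at an adjusted p under 0.05, where 13.3% of all probe sets did. They were Slc43a3, Slc7a2, Slc7a8, Slc6a8, Slc3a2, Slc6a16, Slc1a5, Slc6a12, Slc7a5, Slc36a1, Slc38a3, Slc6a6 and Slc7a6. Their adjusted p-values ran from 0.00249 for Slc43a3 to 0.0495 for Slc7a6. The count was 7 without saline replicate 2 and 7 without insulin glargine replicate 1.

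**Figure D1:**
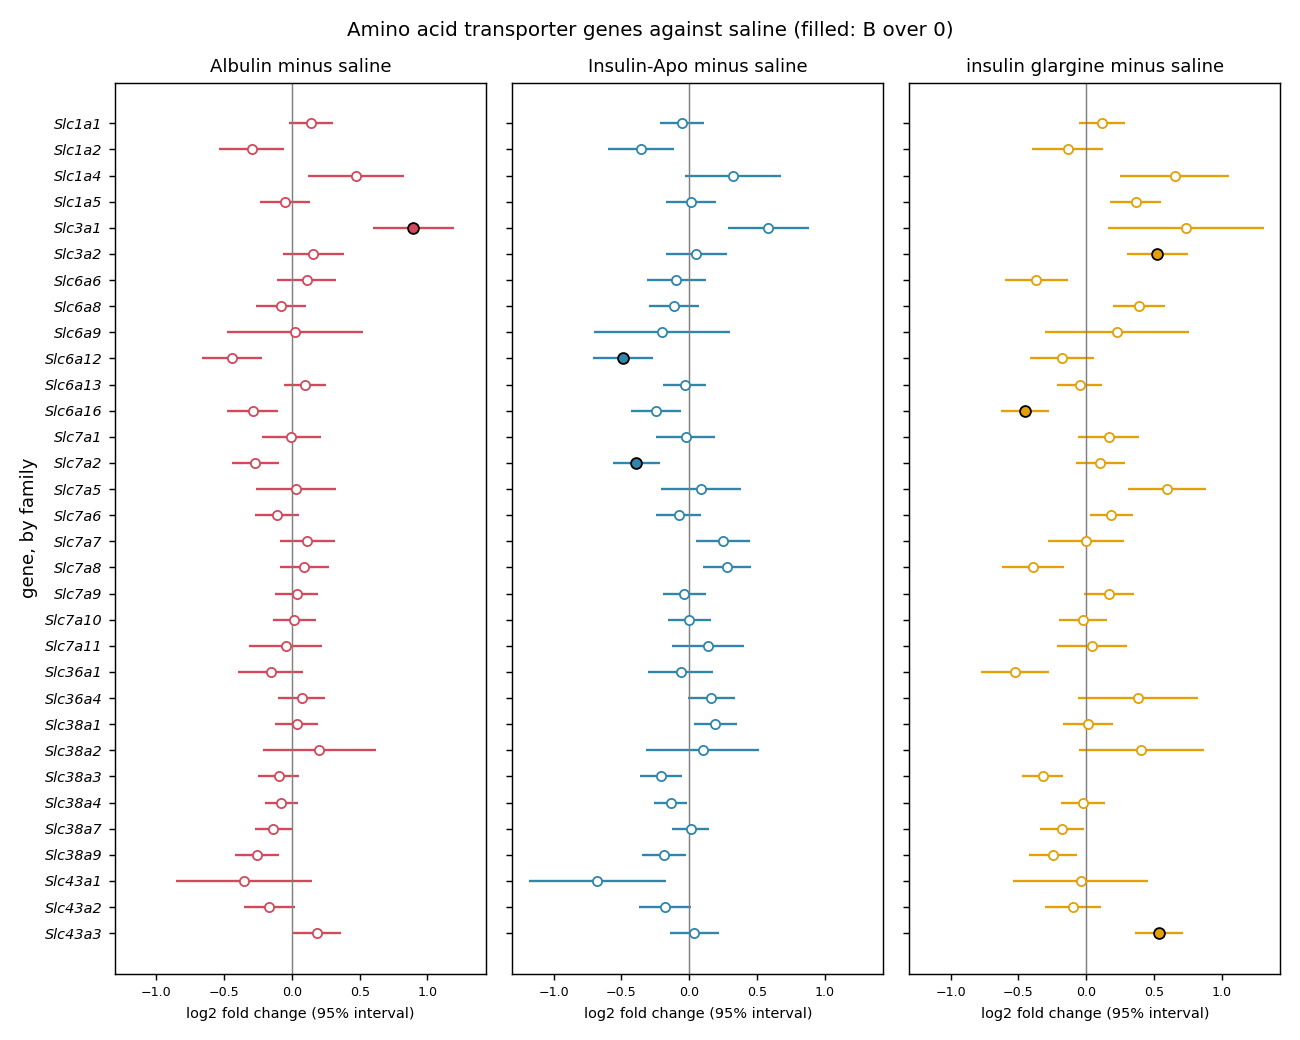
Log2 difference from saline of the 32 named transporter genes after Albulin, Insulin-Apo and insulin glargine, with 95% confidence intervals from limma (x axis, log2 units; 3 arrays per group). Filled symbols are genes called by B over 0, and most intervals include 0, with Slc3a1 after Albulin farthest from it among the called genes, at 0.89.

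Promoter sequences are shown for 4 members. Slc3a1 and Slc3a2 are shown as the heavy chains that were called, and Slc7a11 and Slc1a4 because they hold a copy of the amino acid response motif near the start of transcription. The sequences are from RefSeq on GRCm38.p6 and run from 250 bases before the start to 30 bases after it, on the strand of the gene, 5′ to 3′. Capitals mark the motif TGATGNAA or its reverse complement TTNCATCA, the core to which ATF4 and C/EBP proteins are known to bind. They cover chr17:85028097-85028376 on the plus strand for Slc3a1, chr19:8713868-8714147 on the minus strand for Slc3a2, chr3:50443584-50443863 on the minus strand for Slc7a11 and chr11:20332684-20332963 on the minus strand for Slc1a4.
Slc3a1: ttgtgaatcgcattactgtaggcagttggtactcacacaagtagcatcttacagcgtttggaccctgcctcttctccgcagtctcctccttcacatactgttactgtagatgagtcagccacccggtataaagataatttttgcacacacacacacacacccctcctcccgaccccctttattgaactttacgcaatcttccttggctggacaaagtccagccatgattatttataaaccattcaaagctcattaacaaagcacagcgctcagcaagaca
Slc3a2: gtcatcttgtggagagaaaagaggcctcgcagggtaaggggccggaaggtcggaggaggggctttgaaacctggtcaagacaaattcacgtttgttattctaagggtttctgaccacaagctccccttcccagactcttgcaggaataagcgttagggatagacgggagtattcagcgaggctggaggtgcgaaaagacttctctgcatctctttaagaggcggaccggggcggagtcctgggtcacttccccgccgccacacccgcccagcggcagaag
Slc7a11: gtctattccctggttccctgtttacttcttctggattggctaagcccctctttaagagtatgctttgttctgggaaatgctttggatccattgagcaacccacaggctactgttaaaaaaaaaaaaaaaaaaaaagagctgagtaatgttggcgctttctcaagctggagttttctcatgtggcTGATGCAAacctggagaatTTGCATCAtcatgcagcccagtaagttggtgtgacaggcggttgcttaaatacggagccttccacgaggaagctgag
Slc1a4: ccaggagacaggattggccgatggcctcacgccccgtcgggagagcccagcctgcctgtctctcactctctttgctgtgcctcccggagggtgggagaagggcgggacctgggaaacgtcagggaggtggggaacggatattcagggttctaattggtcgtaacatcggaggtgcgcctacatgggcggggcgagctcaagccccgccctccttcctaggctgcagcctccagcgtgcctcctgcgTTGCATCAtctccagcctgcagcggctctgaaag

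Of the 60 members, 43 had a promoter entry, with 64 windows of 300 bases. The motif on either strand was found in 5 of these windows (7.81%), of 4 genes, where it was found in 3.97% of the 32851 windows of all genes. The matches began at positions -66 and -47 in Slc7a11, -4 in Slc1a4 and -28 in Slc6a21, counted from the start of transcription, and in 2 overlapping windows of Slc7a7. The 2 windows of Slc7a7 share a match at the same site, which was counted in each. The windows shown for Slc3a1 and Slc3a2 hold no match. These matches are letters in a sequence and were not tested for binding, and of the 4 genes none was called in any comparison.

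Both heavy chains rose, each after a different insulin. Slc3a1 (probe set 10447264) encodes rBAT, the heavy chain of the carrier of cystine and dibasic amino acids, known for its role in kidney and intestine and also made in liver. Its log2 values were 9.52, 9.95 and 9.72 in saline, 10.70, 10.56 and 10.61 after Albulin, 10.32, 10.04 and 10.58 after Insulin-Apo, and 10.68, 11.04 and 9.68 after insulin glargine. All 6 arrays of the fusion insulins lay above all 3 saline arrays, and insulin glargine replicate 3 lay among the saline arrays while the other two glargine arrays lay with or above Albulin.

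Slc3a1 rose after Albulin by 0.89 on the log2 scale (SE 0.13, limma adjusted p = 0.00475). The difference after Insulin-Apo was 0.58 (SE 0.13, adjusted p = 0.0394), which was not called by B over 0 except without Insulin-Apo replicate 2 (0.72) or saline replicate 2 (0.69), and after insulin glargine it was 0.74 (SE 0.26, adjusted p = 0.104), or 0.45 without insulin glargine replicate 2. Albulin lay above Insulin-Apo by 0.31 (95% interval 0.01 to 0.61, adjusted p = 0.351), which does not show that the fusion insulins act alike, and by 0.17 without Insulin-Apo replicate 2. Across the 4 treatments together, Slc3a1 was not called by the moderated F test (adjusted p = 0.126). The Albulin call was lost when all 12 arrays were fitted together (adjusted p = 0.112) and held when insulin glargine replicate 3 was left out of that fit (adjusted p = 0.00493). Without the same array, the difference after insulin glargine was 1.13 (adjusted p = 0.000893) and Slc3a1 was called there too. Of 5 kidney proximal tubule markers all were measured, and their log2 summed level was 9.29 to 9.33 in saline and 9.24 to 9.36 after Albulin.

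Slc7a9, the light chain that pairs with rBAT, had group means of 6.58 in saline, 6.62 after Albulin, 6.55 after Insulin-Apo and 6.75 after insulin glargine. Its difference after Albulin was 0.03 (SE 0.07, limma adjusted p = 0.874), and it was called in no comparison. The rise of the heavy chain was therefore not accompanied by a called difference in its light chain. The group means of Slc7a9 lay under every array median, a level at which signal cannot be told from background hybridisation.

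Slc3a2 (probe set 10465772) encodes the CD98 heavy chain, which carries several light chains of the Slc7 family, among them those of system L. In saline its log2 values were 12.63, 12.31 and 12.45, followed by 12.68, 12.42 and 12.76 after Albulin, 12.46, 12.58 and 12.50 after Insulin-Apo, and 13.01, 13.08 and 12.88 after insulin glargine. The 3 glargine arrays lay above all 9 others, which overlapped among themselves. Slc3a2 rose after insulin glargine by 0.53 (SE 0.10, limma adjusted p = 0.00594), while its differences after Albulin (0.16) and Insulin-Apo (0.05) were not called. Insulin glargine lay above Albulin by 0.37 (adjusted p = 0.0445) and above Insulin-Apo by 0.47 (adjusted p = 0.0109), neither of them called, the latter gaining a call without Albulin replicate 2 or saline replicate 1. The call against saline was lost in 7 of 20 alternatives, among them the fits without saline replicate 2 or 3 and without insulin glargine replicate 1 or 2, with values between 0.45 and 0.61 and adjusted p-values up to 0.0332 over all 20.

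Slc7a5 (probe set 10582275) encodes LAT1, a light chain of CD98 that exchanges large neutral amino acids such as leucine. The log2 values read 9.02, 8.82 and 8.74 in saline, 9.01, 8.59 and 9.06 after Albulin, 8.79, 8.90 and 9.15 after Insulin-Apo, and 9.60, 9.36 and 9.41 after insulin glargine. As for its heavy chain, the glargine arrays lay above the other 9. The difference from saline was 0.60 (SE 0.13, limma adjusted p = 0.0118), from Albulin 0.57 (adjusted p = 0.0181) and from Insulin-Apo 0.51 (adjusted p = 0.0273). None was called by B over 0 on all arrays, the first was called without Albulin replicate 2, and the gene differed across the 4 treatments by the F test (adjusted p = 0.0222).

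Slc7a8 (probe set 10419854), which encodes the other system L light chain LAT2, had its glargine arrays on the opposite side. Arrays of saline gave log2 values of 8.70, 8.69 and 8.76, with 8.92, 8.78 and 8.73 after Albulin, 9.15, 8.95 and 8.88 after Insulin-Apo, and 8.50, 8.39 and 8.09 after insulin glargine. All 3 glargine arrays lay below all others, and the Insulin-Apo arrays above all saline arrays. Slc7a8 was lower after insulin glargine than after Insulin-Apo by 0.67 on the log2 scale, a difference of -0.67 (SE 0.11, limma adjusted p = 0.0016) that was called. Against saline it was -0.39 (adjusted p = 0.0312) and against Albulin -0.48 (adjusted p = 0.0122), both not called, the latter gaining a call without insulin glargine replicate 1 (-0.57). The call against Insulin-Apo was lost only in the fit of those 6 arrays alone, of the 20 alternatives.

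Summed levels of macrophage markers overlapped between all groups, while single markers were called. Of 11 Kupffer cell and macrophage markers all were measured. Their log2 summed level was 13.95 to 14.33 in saline, 14.31 to 14.53 after Albulin, 14.16 to 14.67 after Insulin-Apo and 13.54 to 14.32 after insulin glargine. Called lower after insulin glargine than after Insulin-Apo were 3 of 11, beside 2.88% of all probe sets. Against Albulin 1 was lower, beside 2.35%. The median over the 11 was -0.36 for insulin glargine against Insulin-Apo and -0.33 against Albulin. From saline it was 0.11 after Albulin, 0.38 after Insulin-Apo and -0.25 after insulin glargine. Against saline, 2 were called higher after Insulin-Apo, beside 1.34%, and none was called after Albulin or insulin glargine. The part of these markers in the Slc7a8 difference was not tested.

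Slc7a6 (probe set 10574985) encodes a CD98 light chain that exchanges dibasic for neutral amino acids. Log2 expression was 7.38, 7.21 and 7.11 in saline, 7.15, 7.09 and 7.13 after Albulin, 7.10, 7.19 and 7.18 after Insulin-Apo, and 7.43, 7.42 and 7.40 after insulin glargine. The glargine arrays lay above all others, closest to saline replicate 1. The difference was 0.30 against Albulin (limma adjusted p = 0.0234), 0.26 against Insulin-Apo (adjusted p = 0.0373) and 0.18 against saline (adjusted p = 0.143), and none was called. Slc7a7, the related light chain found in macrophages and epithelia, had group means of 7.58, 7.69, 7.83 and 7.58 in saline, Albulin, Insulin-Apo and insulin glargine, with a difference of 0.25 between Insulin-Apo and saline (adjusted p = 0.171). The cystine and glutamate exchanger Slc7a11 had group means of 5.85, 5.81, 6.00 and 5.90 in the same order, and its F test gave an adjusted p of 0.699. Slc7a10, an exchanger of small neutral amino acids, had group means between 7.25 and 7.29. As for Slc7a9, the group means of Slc7a6, Slc7a10 and Slc7a11 lay under every array median, where signal cannot be told from background hybridisation.

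**Figure D2:**
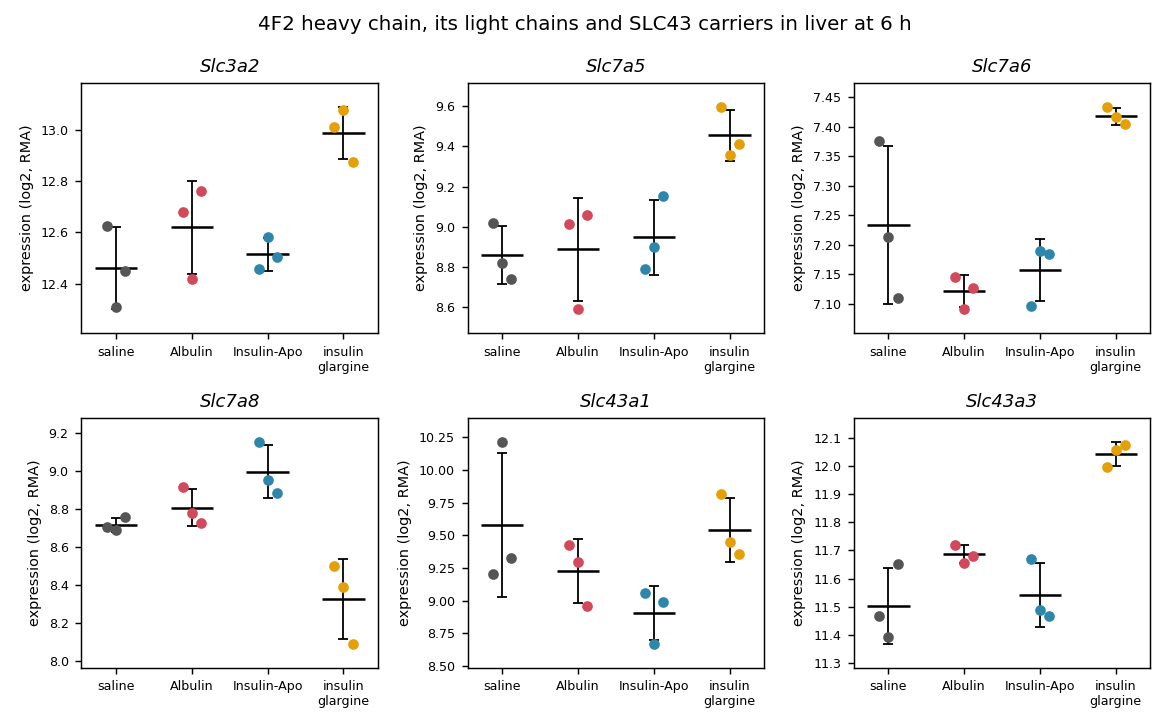
Log2 expression (RMA) on each array of the CD98 heavy chain Slc3a2, its light chains Slc7a5, Slc7a6 and Slc7a8, and the carriers Slc43a1 and Slc43a3, by treatment. Points are arrays, bars are means and whiskers are SDs (3 arrays per group), each panel has its own scale, and the glargine arrays lie above all others for Slc3a2, Slc7a5 and Slc43a3 and below all others for Slc7a8.

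In the Slc43 family, Slc43a3 had the calls that held in every alternative tried. Despite its family name it is known as a carrier of purine bases. Its log2 values (probe set 10473384) were 11.47, 11.39 and 11.65 in saline, 11.72, 11.66 and 11.68 after Albulin, 11.67, 11.49 and 11.47 after Insulin-Apo, and 11.99, 12.06 and 12.07 after insulin glargine. All 3 glargine arrays lay above all others without overlap. Slc43a3 rose after insulin glargine by 0.54 over saline (SE 0.08, limma adjusted p = 0.00118) and by 0.50 over Insulin-Apo (adjusted p = 0.00193). The difference from Albulin was 0.36 (adjusted p = 0.0154) and was not called by B over 0 except without saline replicate 3. Both calls were kept in all 20 alternatives, with adjusted p-values up to 0.0147 against saline and 0.0212 against Insulin-Apo.

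Slc43a1 (probe set 10473367) encodes LAT3, a carrier of branched-chain amino acids and phenylalanine that is known in liver. Its log2 values were 9.20, 10.21 and 9.33 in saline, 9.43, 9.30 and 8.96 after Albulin, 9.06, 8.67 and 8.99 after Insulin-Apo, and 9.82, 9.45 and 9.36 after insulin glargine. The Insulin-Apo arrays lay below all saline and glargine arrays, and saline replicate 2 was the highest of the 12. The difference between Insulin-Apo and saline was -0.68 (95% interval -1.18 to -0.17, limma adjusted p = 0.142) and that between insulin glargine and Insulin-Apo 0.64 (adjusted p = 0.105), neither called. Without saline replicate 2 the difference between Insulin-Apo and saline was -0.36. Slc43a2, which encodes LAT4, had group means of 8.59 in saline, 8.43 after Albulin, 8.42 after Insulin-Apo and 8.50 after insulin glargine.

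Among the carriers of cationic amino acids, Slc7a2 (probe set 10571444) encodes CAT-2, the arginine, lysine and ornithine carrier of hepatocytes. In saline its log2 values were 13.72, 13.71 and 13.71, followed by 13.43, 13.37 and 13.52 after Albulin, 13.41, 13.16 and 13.40 after Insulin-Apo, and 13.91, 13.84 and 13.70 after insulin glargine. The arrays of both fusion insulins lay below all saline and glargine arrays, and the saline and glargine arrays met at 13.70 and 13.71. Slc7a2 fell after Insulin-Apo by 0.39 on the log2 scale (SE 0.08, limma adjusted p = 0.0233), and its difference after Albulin was -0.27 (adjusted p = 0.0816). It was higher after insulin glargine than after Insulin-Apo by 0.49 (SE 0.08, adjusted p = 0.00262), a call, and higher than after Albulin by 0.37 (adjusted p = 0.0139), not a call, but one after quantile normalization and without Insulin-Apo replicate 2 (0.37) or insulin glargine replicate 3 (0.43). The fall after Insulin-Apo was not called in 8 of 19 alternatives, among them the fits that left out any one saline array, Albulin replicate 1, or Insulin-Apo replicate 2 or 3, and over all 19 it lay between -0.43 and -0.31. The difference from insulin glargine was lost only in the fit of those 6 arrays alone, of 20 alternatives.

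Slc7a1, the widely expressed cationic carrier CAT-1, had group means of 7.98 in saline, 7.98 after Albulin, 7.96 after Insulin-Apo and 8.15 after insulin glargine. None of its differences was called.

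In the Slc6 family, the betaine carrier Slc6a12 (probe set 10541333), through which liver takes up an osmolyte and methyl donor, was lower after both fusion insulins. The log2 values read 12.28, 12.48 and 12.28 in saline, 12.07, 11.91 and 11.74 after Albulin, 11.77, 11.80 and 12.01 after Insulin-Apo, and 12.29, 12.22 and 11.995 after insulin glargine. All 6 arrays of Albulin and Insulin-Apo lay below all saline arrays, and the glargine arrays overlapped both sides. Slc6a12 fell after Insulin-Apo by 0.49 (SE 0.10, limma adjusted p = 0.0245), while the difference after Albulin was -0.44 (adjusted p = 0.0312) and missed the call, which it made without Albulin replicate 1 (-0.52). The fall after Insulin-Apo was not called in 9 of 19 alternatives, among them the fits that left out any one saline array, Albulin replicate 2, or Insulin-Apo replicate 1 or 2, and over all 19 it lay between -0.56 and -0.42. Slc6a13, which carries GABA and taurine in liver, had group means of 12.35, 12.44, 12.31 and 12.30 in saline, Albulin, Insulin-Apo and insulin glargine, and was not called.

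Slc6a8 (probe set 10600210) carries creatine into cells. Arrays of saline gave log2 values of 8.99, 8.66 and 8.70, with 8.67, 8.74 and 8.70 after Albulin, 8.69, 8.65 and 8.68 after Insulin-Apo, and 9.15, 9.08 and 9.29 after insulin glargine. The glargine arrays lay above the other 9. Slc6a8 was higher after insulin glargine than after Albulin by 0.47 (SE 0.09, limma adjusted p = 0.00526) and than after Insulin-Apo by 0.50 (adjusted p = 0.00331), both called, and its difference from saline was 0.39 (adjusted p = 0.0134), not called, but called with arrays centred on their medians and without saline replicate 1 (0.49). The call against Albulin was lost without any one Albulin array and without insulin glargine replicate 1 or 3, at values down to 0.41, and the call against Insulin-Apo was lost without Insulin-Apo replicate 2 (0.49, adjusted p = 0.0163).

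Slc6a16 (probe set 10552888) encodes an orphan member of the family with no settled substrate. Log2 expression was 7.88, 8.05 and 7.92 in saline, 7.59, 7.63 and 7.76 after Albulin, 7.79, 7.54 and 7.78 after Insulin-Apo, and 7.53, 7.47 and 7.49 after insulin glargine. All 9 treated arrays lay below the saline arrays, and the glargine arrays were the lowest. Slc6a16 fell after insulin glargine by 0.45 (SE 0.08, limma adjusted p = 0.004), with differences of -0.29 after Albulin (adjusted p = 0.0851) and -0.24 after Insulin-Apo that were not called. The fall was not called without saline replicate 2 or without insulin glargine replicate 2, at values up to -0.40. Its group mean was 7.95 in saline and 7.50 after insulin glargine, and the latter lay under every array median. At such a level signal cannot be told from background hybridisation.

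Slc6a6 (probe set 10540122) encodes the taurine carrier, taurine being used in liver to conjugate bile acids. Its log2 values were 11.36, 11.15 and 11.22 in saline, 11.38, 11.20 and 11.47 after Albulin, 11.09, 11.02 and 11.33 after Insulin-Apo, and 10.86, 11.04 and 10.73 after insulin glargine. All 3 glargine arrays lay below the saline and Albulin arrays and overlapped those of Insulin-Apo. The difference was -0.37 from saline (limma adjusted p = 0.0452) and -0.48 from Albulin (adjusted p = 0.0146), neither called, the latter gaining a call without insulin glargine replicate 2 (-0.56). The glycine carrier Slc6a9 had group means of 11.02, 11.04, 10.82 and 11.25 in saline, Albulin, Insulin-Apo and insulin glargine with an SE of 0.23 or more for each difference, and was not called.

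**Figure D3:**
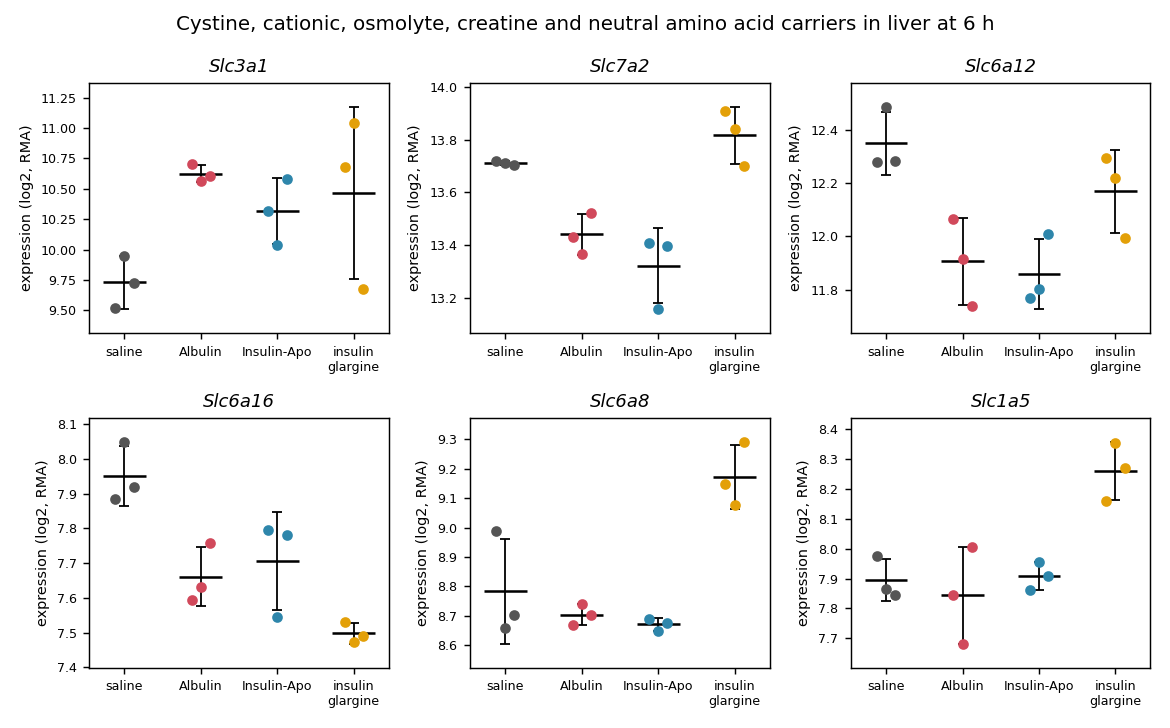
Log2 expression (RMA) on each array of Slc3a1, Slc7a2, Slc6a12, Slc6a16, Slc6a8 and Slc1a5, the called genes of the cystine, cationic, osmolyte, orphan, creatine and neutral carriers, by treatment. Points are arrays, bars are means and whiskers are SDs (3 arrays per group), each panel has its own scale, and insulin glargine replicate 3 of Slc3a1, at 9.68, lies among the saline arrays.

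In the Slc1 family the neutral exchangers of system ASC gave the largest differences. Slc1a5 (probe set 10550332) encodes ASCT2, a glutamine exchanger of dividing cells. In saline its log2 values were 7.98, 7.87 and 7.85, followed by 7.84, 7.68 and 8.005 after Albulin, 7.86, 7.95 and 7.91 after Insulin-Apo, and 8.16, 8.35 and 8.27 after insulin glargine. The glargine arrays lay above the other 9, which overlapped. Slc1a5 was higher after insulin glargine than after Albulin by 0.42 (SE 0.09, limma adjusted p = 0.00918), which was called, and its differences from saline (0.37, adjusted p = 0.0166) and Insulin-Apo (0.35, adjusted p = 0.0202) were not. That call was the least stable of the 12, being lost in 13 of 20 alternatives. These included the fits without Albulin replicate 1 or 2, without insulin glargine replicate 2 or 3 and without any one array of saline or Insulin-Apo, with values between 0.34 and 0.50 over all 20.

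Slc1a4 (probe set 10384539) encodes ASCT1, which carries alanine, serine and cysteine. The log2 values read 7.22, 7.58 and 7.49 in saline, 7.85, 7.88 and 7.98 after Albulin, 7.54, 8.20 and 7.53 after Insulin-Apo, and 8.23, 7.72 and 8.31 after insulin glargine. The Albulin and glargine arrays lay above all saline arrays, and those of Insulin-Apo overlapped them. The difference from saline was 0.65 after insulin glargine (SE 0.18, limma adjusted p = 0.039), 0.47 after Albulin (adjusted p = 0.137) and 0.33 after Insulin-Apo (adjusted p = 0.332), none called, and without Insulin-Apo replicate 2 the last was 0.10 and the Albulin difference was called. Slc1a2, the glutamate carrier of pericentral hepatocytes and of glia, had group means of 12.24, 11.94, 11.88 and 12.10 in saline, Albulin, Insulin-Apo and insulin glargine, with differences of -0.30 (adjusted p = 0.172) and -0.35 (adjusted p = 0.111) for the fusion insulins. Slc1a1, a neuronal and epithelial glutamate carrier, had group means between 6.57 and 6.76 and was not called.

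No member of Slc38 was called by limma in a pairwise comparison, and 17 of its 66 gene and comparison pairs had an unadjusted p under 0.05. No share over all probe sets stands beside that number, so it is not read as a result. Slc38a3 (probe set 10596718) encodes SNAT3, the system N carrier through which hepatocytes take up and release glutamine. Arrays of saline gave log2 values of 13.87, 14.05 and 13.93, with 13.88, 13.88 and 13.80 after Albulin, 13.68, 13.82 and 13.74 after Insulin-Apo, and 13.67, 13.61 and 13.61 after insulin glargine. The Insulin-Apo and glargine arrays lay below all saline arrays. The difference from saline was -0.32 after insulin glargine (SE 0.07, limma adjusted p = 0.0097), with a B of -0.14 just under the call, and -0.21 after Insulin-Apo (adjusted p = 0.136). Slc38a3 differed across the 4 treatments by the F test (adjusted p = 0.0294).

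Slc38a2 (probe set 10431894) encodes SNAT2, the system A carrier known for its response to amino acid supply and to insulin. Log2 expression was 12.75, 12.15 and 12.72 in saline, 12.87, 12.33 and 13.03 after Albulin, 12.74, 12.72 and 12.48 after Insulin-Apo, and 13.20, 13.11 and 12.54 after insulin glargine. The arrays of every pair of groups overlapped. The difference after insulin glargine was 0.41 (95% interval -0.05 to 0.87, limma adjusted p = 0.298), so a rise of up to that upper bound could not be told from none with these arrays. Without insulin glargine replicate 3 it was 0.61 (adjusted p = 0.0736) and without saline replicate 2 it was 0.21, neither called.

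Slc38a4 (probe set 10431915), the system A carrier SNAT4 that is largely made in liver, had log2 values of 14.16, 14.17 and 14.19 in saline, 14.11, 14.09 and 14.09 after Albulin, 14.03, 14.06 and 14.03 after Insulin-Apo, and 14.29, 14.19 and 13.98 after insulin glargine. The arrays of both fusion insulins lay below all saline arrays, and those of insulin glargine spread across all of them. The difference between Insulin-Apo and saline was -0.14 (limma adjusted p = 0.224), not called. Of the others, Slc38a1 (SNAT1) differed by 0.20 between Insulin-Apo and saline (adjusted p = 0.181). Slc38a7, a lysosomal glutamine carrier, had group means between 9.01 and 9.20, and Slc38a9, the lysosomal arginine sensor of mTORC1, had a difference of -0.26 after Albulin (adjusted p = 0.0803).

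The 2 genes with a second probe set did not give the same values on it. The second probe set of Slc38a9 (10407209) had differences from saline of 0.08 after Albulin, 0.01 after Insulin-Apo and 0.22 after insulin glargine (limma adjusted p = 0.13), opposite in sign to the first for insulin glargine, which gave -0.24 (adjusted p = 0.0821). That of Slc38a1 (10431872) had -0.08, 0.02 and -0.14 in the same order. None was called, so no direction is given for either gene.

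In the Slc36 family, Slc36a1 (probe set 10376216) encodes PAT1, a proton-coupled carrier of lysosomes linked to mTORC1. Its log2 values were 9.57, 9.65 and 9.58 in saline, 9.37, 9.47 and 9.49 after Albulin, 9.28, 9.80 and 9.55 after Insulin-Apo, and 8.94, 9.05 and 9.24 after insulin glargine. All 3 glargine arrays lay below all 9 others. The difference after insulin glargine was -0.53 from saline (SE 0.12, limma adjusted p = 0.0112) and -0.47 from Insulin-Apo (adjusted p = 0.0213), neither called. The latter gained a call without Insulin-Apo replicate 1 (-0.60). The difference from saline was called in 6 of 20 alternatives: by adjusted p, with the replicate block, in the fit of those 6 arrays alone, without Insulin-Apo replicate 1 or 2 (-0.53 in each), and without insulin glargine replicate 3 (-0.61, adjusted p = 0.0058).

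For Slc36a4, the related carrier PAT4, insulin glargine replicate 3 decided the call. In saline its log2 values were 9.81, 9.91 and 10.05, followed by 10.01, 9.94 and 10.04 after Albulin, 10.20, 10.03 and 10.03 after Insulin-Apo, and 10.69, 10.59 and 9.64 after insulin glargine. Replicates 1 and 2 of insulin glargine were the highest of the 12 arrays and replicate 3 the lowest. Over all arrays the difference from saline was 0.38 (SE 0.20, limma adjusted p = 0.309). Without replicate 3 it was 0.71 (adjusted p = 0.000333) and was called, as it was against Albulin (0.64) and Insulin-Apo (0.55).

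**Figure D4:**
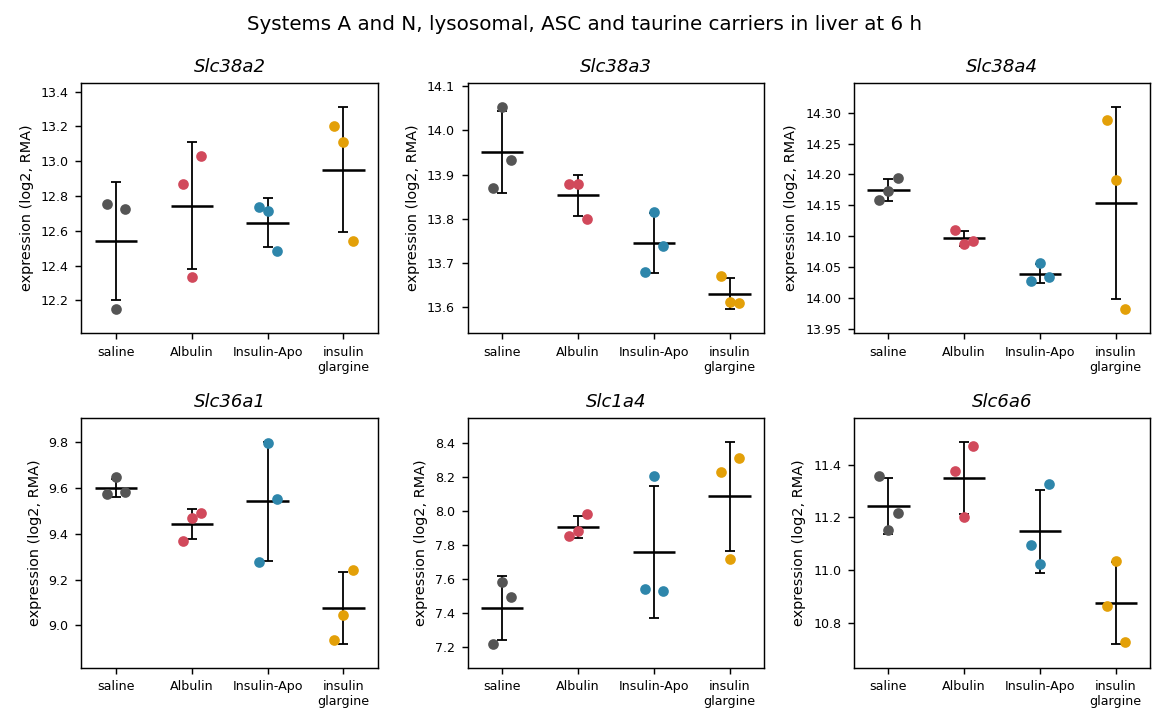
Log2 expression (RMA) on each array of the system A and N carriers Slc38a2, Slc38a3 and Slc38a4, the lysosomal carrier Slc36a1, the system ASC carrier Slc1a4 and the taurine carrier Slc6a6, by treatment. Points are arrays, bars are means and whiskers are SDs (3 arrays per group), each panel has its own scale, and the glargine arrays of Slc36a1, between 8.94 and 9.24, lie below all others.

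The 12 pairwise calls fell on 9 members: Slc3a1, Slc3a2, Slc43a3, Slc7a2, Slc7a8, Slc6a12, Slc6a16, Slc6a8 and Slc1a5. The 28 members outside the named genes, Slc6a3 and Slc7a12 among them, were mostly carriers of neurotransmitters, of other tissues or without a settled substrate. They were Slc1a3, Slc1a6, Slc1a7, Slc36a2, Slc36a3, Slc38a10, Slc38a11, Slc38a5, Slc38a6, Slc38a8, Slc6a11, Slc6a14, Slc6a15, Slc6a17, Slc6a18, Slc6a19, Slc6a2, Slc6a21, Slc6a3, Slc6a4, Slc6a5, Slc6a7, Slc7a12, Slc7a13, Slc7a14, Slc7a15, Slc7a3 and Slc7a4. Of these 28, 27 were tested, their means over the 12 arrays lay between 4.34 and 9.78, and their log2 differences lay between -0.23 and 0.19 over 162 gene and comparison pairs. By limma 0 of those pairs were called and 11 had an unadjusted p under 0.05, with a lowest adjusted p of 0.109. The number 11 has no share over all probe sets beside it and is not read as a result.

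Markers of blood leukocytes differed between some of the groups. Of 9 neutrophil markers all were measured, and their log2 summed level was 10.31 to 10.48 in saline, 10.85 to 10.99 after Albulin, 10.65 to 10.85 after Insulin-Apo and 10.20 to 10.38 after insulin glargine. Of 5 B cell markers 4 were measured, at 9.21 to 9.32, 9.46 to 9.83, 9.24 to 9.35 and 9.05 to 9.10 in the same order. Of 9 T cell and NK cell markers 8 were measured, at 10.22 to 10.29, 10.11 to 10.28, 10.29 to 10.35 and 10.10 to 10.16. Neutrophil levels overlapped between saline and insulin glargine, and B cell levels between saline and Insulin-Apo. T cell and NK cell levels overlapped between saline and both fusion insulins, and between Albulin and insulin glargine. Their part in the differences of the carriers was not tested.

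Genes that work beside these carriers were counted with the same calls, whose background shares are those given above. For counts at an unadjusted p under 0.05 in either direction, that share is given only for Albulin against Insulin-Apo (13.5%). Such counts below are therefore not read as results about the lists. Of 24 other amino acid carriers, most of them mitochondrial or lysosomal, all were tested. Slc25a22, a mitochondrial glutamate carrier, fell after Albulin by 0.58 (limma adjusted p = 0.00493) and rose after insulin glargine by 0.66, so that these insulins differed by 1.23. It was also lower after Albulin than after Insulin-Apo, by a difference of -0.59 (adjusted p = 0.0357). Slc25a15, the mitochondrial ornithine carrier of the urea cycle, rose after insulin glargine by 0.69 and was higher than after Albulin by 1.06. No other gene of that list was called against saline, and the lysosomal carrier Slc66a1 was higher after insulin glargine than after Albulin by 0.42. The median over the 24 was -0.10 after Albulin, -0.07 after Insulin-Apo and 0.04 after insulin glargine, where all probe sets had 0.00, -0.02 and -0.00.

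Of 39 genes of amino acid sensing by mTORC1, 37 were tested, and few were called. Sesn3, a sestrin that restrains mTORC1, fell after Insulin-Apo by 0.50 and after insulin glargine by 0.47, and Deptor, an inhibitor bound to mTOR, fell after insulin glargine by 0.92. No gene of that list was called after Albulin by limma, where 12 had an unadjusted p under 0.05. None was called between the insulins either, where 5 had such a p for Albulin against Insulin-Apo, 9 for insulin glargine against Albulin and 11 for insulin glargine against Insulin-Apo. Of 31 genes of the ATF4 response to amino acid lack, 29 were tested. After Albulin 2 of the 29 rose and after Insulin-Apo 2, beside 1.37% and 1.34% of all probe sets. Chac1, which degrades glutathione, rose after Albulin by 1.69, Atf4, the transcription factor itself, rose after Insulin-Apo by 0.35, and Wars, the tryptophan tRNA synthetase, rose after Albulin by 0.38 and after Insulin-Apo by 0.47. After insulin glargine only Cbs of that list was called against saline, at 0.40. Against Albulin 1 of the 29 was lower after insulin glargine, and against Insulin-Apo 1 was higher and 1 lower. The median over the 29 was 0.02 after Albulin, 0.06 after Insulin-Apo and 0.11 after insulin glargine. All probe sets had 0.00, -0.02 and -0.00.

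Of 42 genes of hepatic amino acid catabolism and the urea cycle, 37 were tested. None was called after Albulin by limma, where 13 had an unadjusted p under 0.05, and 1, the alanine aminotransferase Gpt, fell after Insulin-Apo by 0.70. After insulin glargine 3 rose and 2 fell against saline: Agxt, which converts glyoxylate to glycine, rose by 1.56, and Amt, of glycine cleavage, fell by 0.69. Against Insulin-Apo 6 were higher after insulin glargine, among them Agxt by 1.44 and Gpt by 0.90, and 1 was lower. Of all probe sets 1.96% were higher and 2.88% lower there. Against Albulin 4 were higher after insulin glargine and 1 was lower, beside 2.01% and 2.35% of all probe sets. The median over the 37 was -0.13 after Albulin, -0.18 after Insulin-Apo and 0.05 after insulin glargine, beside 0.00, -0.02 and -0.00 over all probe sets.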

How the data were processed

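Liver RNA was hybridised to 12 Affymetrix Mouse Gene 1.0 ST arrays, 3 per treatment, grouped by the treatment in the labels. The authors deposited log2 expression values made with RMA, which corrects background, normalizes between arrays and summarises each probe set. Not given in the sources used here were the RMA version, the annotation build and whether normalization covered the 12 arrays jointly. Depth does not apply to arrays, and their number limits the precision. In the probe annotation 21640 probe sets had 1 gene symbol, 1321 several and 5252 none, and only the first were named.

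The values were used as deposited. As in the study's methods, probe sets over 5 in at least 2 arrays of a condition were kept, 25989 for the 9 arrays without insulin glargine and 26027 for all 12, and limma 3.58.1 in R 4.3.3 was fitted (lmFit, contrasts.fit, eBayes with a prior proportion of 0.01), with a gene called when B was over 0. The microarray methods name no insulin glargine arrays, so these were compared in a fit of all 12 arrays, which also gave the moderated F test over all features. Differences of insulin glargine from the other groups may therefore include a difference between runs, which was not tested. P-values were adjusted by the Benjamini-Hochberg method over all probe sets tested in each comparison. The fits were tested on simulated data.

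Named genes were those called in any comparison or by the F test, those with a log2 difference of at least 0.5 and no overlap between arrays, and 31 hepatic or widely studied members. The members, gene lists and marker lists were chosen with earlier results of these data known. Promoters came from RefSeq (GRCm38.p6). Python 3.11.15 with matplotlib 3.10.9 drew the figures. Alternatives were a filter at 6 and no filter, quantile normalization, median centring, a call by adjusted p under 0.05 instead of B, the replicate number as a block, other sets of arrays and each array left out in turn. One, all arrays but insulin glargine replicate 3 in a single fit, was chosen after seeing the data.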

Additional observations from a re-analysis of the deposited data

How the results depend on the processing

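Of the 12 calls on 9 members, 2 (both of Slc43a3) were kept under every alternative and 0 reversed direction under any. The number of members called by B over 0 was 1 for Albulin against saline, 2 for Insulin-Apo against saline, 0 for Albulin against Insulin-Apo, and 3, 2 and 4 for insulin glargine against saline, Albulin and Insulin-Apo. Calling by an adjusted p under 0.05 instead gave 2, 3, 0, 11, 9 and 9 in that order. Centring arrays on their medians gave 0 for Insulin-Apo against saline and 1 for insulin glargine against Albulin, and fits of only the 2 groups compared gave 1 for each of these. Fitting all 12 arrays gave 0 for Albulin and 1 for Insulin-Apo against saline.

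Deviations of same-numbered arrays were weakly correlated: over 18 pairs the correlation ran from -0.27 to 0.15, and 2 pairs were over 0.1. The numbers were therefore not used to pair the samples in the main fits. With 3 arrays per group these correlations cannot exclude that same-numbered arrays were handled together. With the replicate number as a block the counts were 1, 1, 0, 3, 2 and 4, and 11 for the F test beside 13 without the block.

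Leaving out each array in turn gave 1 to 2 members for Albulin against saline, 0 to 2 for Insulin-Apo against saline (0 without saline replicate 1 or 3), 0 to 0 for Albulin against Insulin-Apo, 1 to 6 for insulin glargine against saline (6 without insulin glargine replicate 3, 1 without saline replicate 2 or insulin glargine replicate 2), 0 to 2 against Albulin (0 without Albulin replicate 1 or 2), 3 to 5 against Insulin-Apo and 7 to 14 for the F test. The cause of these changes was not tested. With 3 arrays per group, differences such as that of Slc38a2 after insulin glargine could not be told from 0, and low-level members cannot be told from background hybridisation.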
